A study of Mus musculus with 4 samples.

Results

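Mitochondrial ribosomal proteins were followed in H460 cells, a human lung carcinoma cell line in long use, after treatment with 250 µM farnesol for 4 h. Every non-control probe of the 2-colour arrays whose gene name was MRPL or MRPS plus a number, with or without a closing letter, was taken. This gave 106 of 41000 probes, for 76 of 18760 named genes, 47 named for the large subunit (69 probes) and 29 named for the small subunit (37 probes). Subunits are given by name throughout, although later structures of the mammalian ribosome place MRPS30 and MRPS18A in the large subunit. The groups were H460 cells given farnesol, an isoprenoid alcohol made from an intermediate of the mevalonate pathway, and H460 cells given the vehicle dimethyl sulphoxide (DMSO), which the protocols put at the same time, both in RPMI1640 with serum. The labels name the RNAs only as 4H1ST and 4H2ST, and OH1ST and OH2ST (once spelled 0H2ST). That 4H is farnesol and OH the vehicle was read from the protocols and from the authors' deposited table, whose ratios of farnesol over vehicle run the same way as 4H over OH; no label says whether the letter or the zero was meant. Per the labels, there were duplicate experiments, and each farnesol RNA was hybridised together with its own vehicle RNA on 2 arrays with the dyes exchanged, so 4 arrays hold n = 2 replicates. The labels do not say whether the duplicates were separate cultures, and p-values measure only the spread between them. The organism label reads mouse, but the cells and the array's gene symbols are human, and the data were read as human.

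The mitochondrial ribosome makes the few proteins encoded in mitochondrial DNA, which are core subunits of the respiratory chain and ATP synthase. Its RNAs come from mitochondrial DNA, while all of its proteins are encoded in the nucleus, made in the cytosol and imported. Part of them descend from bacterial ribosomal proteins, and the others were added in the mitochondrial lineage; the small subunit decodes the messenger RNA and the large subunit forms the peptide bond. The arrays measured the messenger RNA of these proteins, not the ribosome itself or its output.

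All 76 genes were measured well enough to be tested. No member spot was saturated, and 75 of the 76 chosen probes were well above background in both channels of all 4 arrays. Across all probes, each channel had 82.7% to 93.0% of its spots well above background, and the number of arrays limits the precision. Dye-swapped arrays of a pair correlated at r = 0.965 in replicate 1 and 0.959 in replicate 2 across 17871 genes, against 0.675 to 0.712 between replicates. The 4 epithelial markers (KRT8, KRT18, KRT19, TACSTD1) were well above background on every array, at mean log2 intensities of 8.05 to 14.3. Of 4 markers each, 3 of leukocytes, 2 of fibroblasts and 2 of endothelium also passed that limit on every array, and all markers of these types lay at mean log2 intensities of 5.94 to 8.88.

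Most of these messenger RNAs were lower in farnesol-treated cells, in both subunits and both replicates. The median log2 ratio of farnesol over vehicle was -0.32 over the 76 genes, a farnesol level at 79.9% of vehicle, against 0.01 over all 17871 genes tested. The size depended on the scaling: with each array centred on its median in place of loess, the member median was -0.54, against -0.03 over all genes. The quartiles of the member genes were -0.44 and -0.17, and their full range was -1.11 to 0.18. Of the 76, 70 had a mean below 0, and 53 (69.7%) had a log2 ratio at or below -0.25, which 16.0% of all genes reached. In the lowest 10% of all genes by mean log2 ratio there were 32 of the 76 members (42.1%).

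Each of the 4 arrays gave this picture by itself. The median member ratio was -0.34 and -0.32 on the replicate 1 arrays with farnesol in Cy5 and in Cy3, and -0.26 and -0.32 on the corresponding replicate 2 arrays. The median over all genes lay between -0.01 and 0.00 on every array. On these arrays 69 of 75, 70 of 76, 67 of 76 and 67 of 76 member genes were below 0. Lower on all 4 arrays were 58 of the 76 genes (76.3%), against 24.7% of all genes. Higher on all 4 arrays was 1 member, MRPS36, against 21.0% of all genes. Of the other 17 genes, 8 were lower in both replicate means, 1 was higher in both (MRPL33) and 8 had opposite signs in the replicates.

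**Figure D1:**
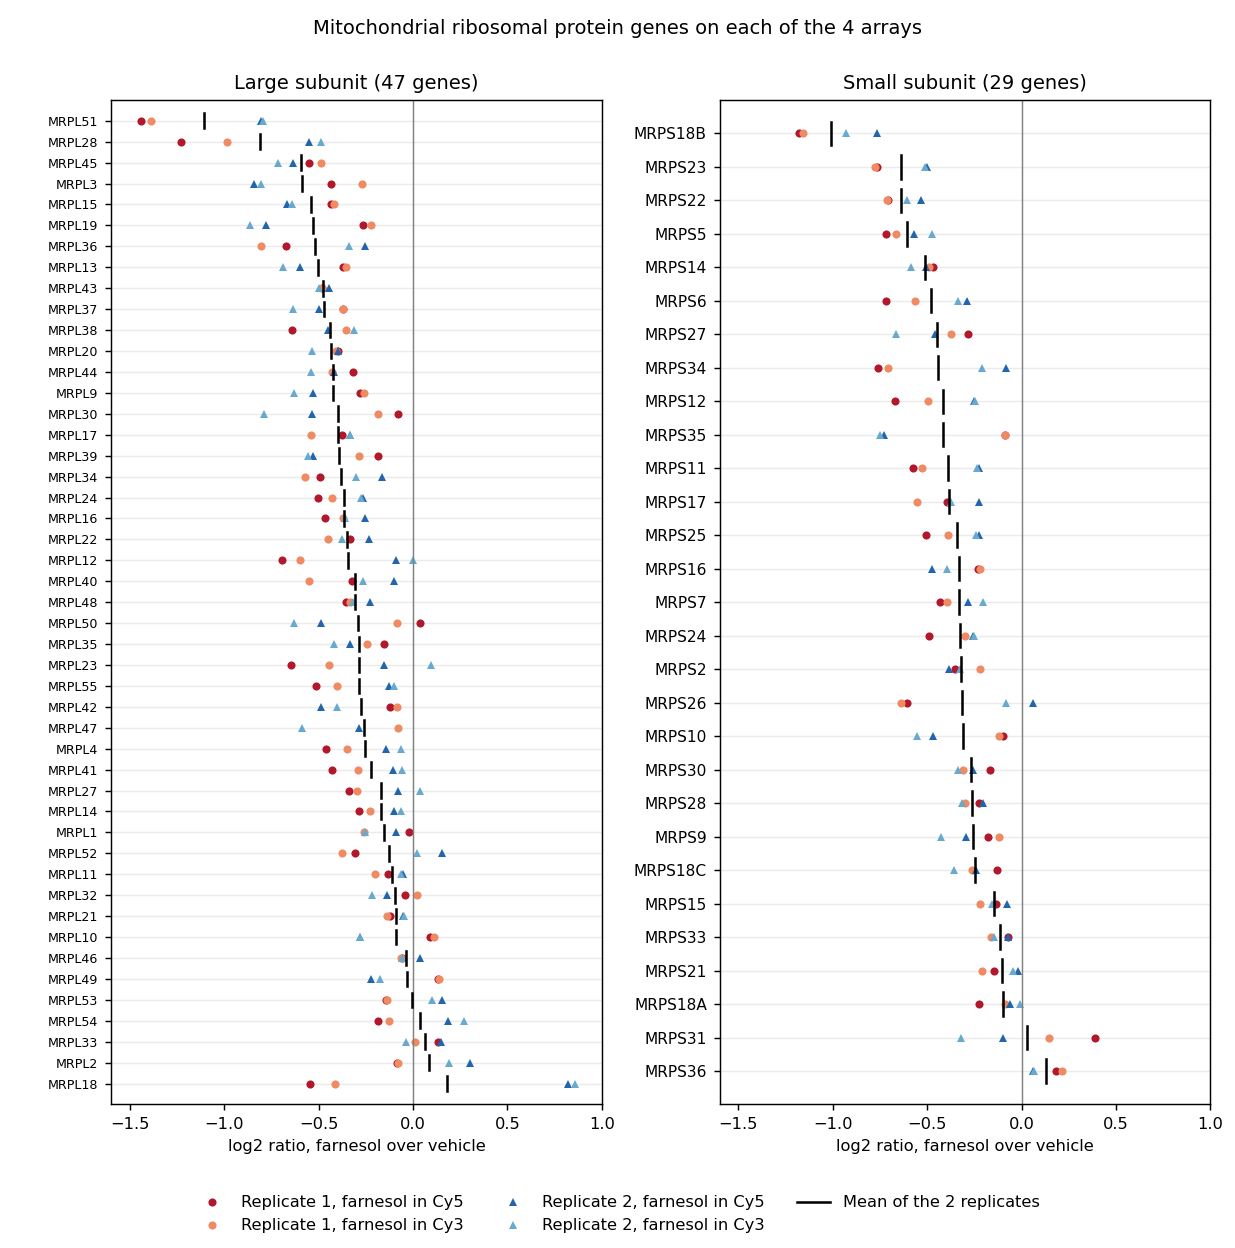
Log2 ratio of farnesol over vehicle (horizontal axis) for each of the 47 large subunit genes (left) and 29 small subunit genes (right), ordered by the mean, with the lowest at the top. Circles are the 2 arrays of replicate 1, triangles those of replicate 2, and black ticks the mean of the replicates. Most points lie left of 0; MRPL18 shows its replicate 1 arrays below 0 and its replicate 2 arrays above.

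No single member passed the test across replicates. By limma's moderated test with Benjamini-Hochberg adjustment over all 28594 features, 0 of the 76 genes had an adjusted p under 0.05, and 3 of all genes did (0.0168%). The lowest adjusted p among members was 0.191 and the highest 0.978. At an unadjusted limma p under 0.05, 40 members (52.6%) were lower, against 13.0% of all genes, and 0 were higher, against 4.00% of all genes. A change of at least 2-fold in both replicates, with all arrays the same way, was seen in 0 members, against 0.313% of all genes lower and 0.834% higher. With 2 replicates the test has little residual information per gene, so the values below are measurements and not calls.

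The medians of the large and small subunits were close to each other. The 47 large subunit genes had a median log2 ratio of -0.31 (-0.35 in replicate 1 and -0.28 in replicate 2), and 32 of them were lower on all 4 arrays. The 29 small subunit genes had a median of -0.33 (-0.33 in replicate 1 and -0.30 in replicate 2), and 26 of them were lower on all 4 arrays. Split by ancestry, the 47 genes with a bacterial counterpart had a median of -0.33, with 38 lower on all 4 arrays. The 29 genes specific to mitochondria had a median of -0.31, with 20 lower on all 4 arrays. All 18 MRPS genes with a bacterial counterpart were lower on all 4 arrays (15 with no normexp offset and 17 with the scanner's processed signals), and the difference between these subgroups was not tested.

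The lowest member was MRPL51, a large subunit protein specific to mitochondria. Its log2 ratio was -1.44 and -1.39 on the replicate 1 arrays and -0.80 and -0.79 on the replicate 2 arrays. All 4 arrays lay far below 0, but the replicates differed from each other more than the dyes did. The normalized log2 intensity of its probe was 10.40 with farnesol and 11.81 with vehicle in replicate 1, and 10.80 with farnesol and 11.60 with vehicle in replicate 2. The mean of -1.11 ± 0.43 (SD, n = 2; 2.15-fold lower) had an adjusted p of 0.223 by limma.

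Next came MRPS18B, one of 3 human paralogs of the bacterial small subunit protein S18. It measured -1.18 and -1.16 in replicate 1 and -0.77 and -0.93 in replicate 2, with a mean of -1.01 ± 0.23 (SD, n = 2; 2.01-fold lower; limma adjusted p = 0.191). Its paralogs were closer to 0: MRPS18C averaged -0.25 ± 0.07 and MRPS18A -0.10 ± 0.09 (SD, n = 2 each). All 3 paralogs were below 0 on every array, although MRPS18A reached only -0.01 on one of them.

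MRPL28, a large subunit protein with a bacterial counterpart, measured -1.23 and -0.98 in replicate 1 and -0.55 and -0.49 in replicate 2. Its mean was -0.81 (SD 0.415, n = 2; limma adjusted p = 0.270), again with the deeper values in replicate 1. The next lowest member, MRPS23, followed at -0.64.

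**Figure D2:**
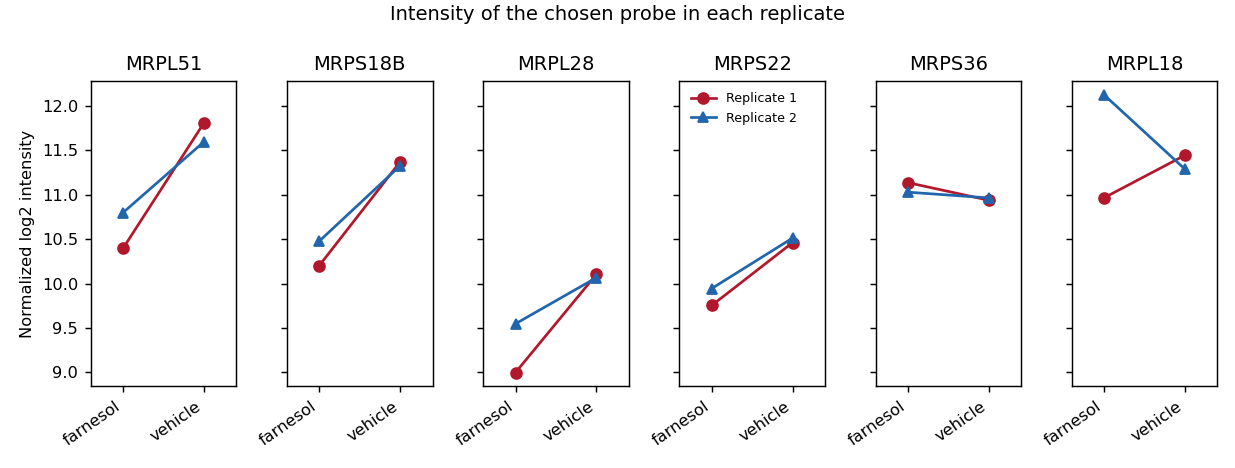
Normalized log2 intensity (vertical axis) of the chosen probe in farnesol-treated cells (left of each panel) and vehicle-treated cells (right), joined within replicate 1 (circles) and replicate 2 (triangles), for 4 low members and for MRPS36 and MRPL18. Intensities of different probes are not to be set against each other; within panels, the lines of MRPL51, MRPS18B, MRPL28 and MRPS22 slope the same way in both replicates, and those of MRPL18 cross.

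Among the genes named for the small subunit, MRPS22, MRPS23, MRPS5 and MRPS14 had replicates closer together than those of MRPS18B. MRPS22 is a protein specific to mitochondria whose recessive mutations cause mitochondrial disease. It measured -0.71 and -0.71 in replicate 1 and -0.53 and -0.60 in replicate 2 (mean -0.64 ± 0.10, limma adjusted p = 0.191). MRPS23 averaged -0.64 ± 0.19 and was below -0.50 on every array. MRPS5, which belongs to the universally conserved core of small subunits, averaged -0.61 ± 0.12. For MRPS14, another conserved small subunit protein, the 4 arrays spanned only -0.59 to -0.47 (mean -0.51 ± 0.05). MRPS12, the counterpart of the bacterial protein S12 at the decoding centre, measured -0.67 and -0.50 in replicate 1 and -0.25 and -0.25 in replicate 2 (mean -0.41 ± 0.24). MRPS6 averaged -0.48 ± 0.23, deeper in replicate 1. MRPS30, a mitochondria-specific protein once described as pro-apoptotic and since placed in the large subunit, averaged -0.27 ± 0.04, and all 4 arrays were below 0.

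Within the large subunit, several members had their deeper values in replicate 2. MRPL3, which reaches toward the peptidyl transferase centre, measured -0.44 and -0.27 in replicate 1 and -0.84 and -0.81 in replicate 2 (mean -0.59 ± 0.33). Its other, dimmer probe had the reverse order, at -0.26 in replicate 1 and -0.06 in replicate 2. MRPL19 was deeper in replicate 2, at -0.26 and -0.22 in replicate 1 and -0.78 and -0.86 in replicate 2 (mean -0.53 ± 0.41). MRPL15 (-0.54 ± 0.16) and MRPL13 (-0.50 ± 0.20) were also deeper in replicate 2, whereas MRPL36 (-0.52 ± 0.31) was deeper in replicate 1. MRPL43 had the most even values of the large subunit's lowest genes, -0.50 to -0.45 over the 4 arrays. MRPL45, which helps to anchor the ribosome at the inner membrane, averaged -0.60 ± 0.11 on its brighter probe, but 0.08 on the other.

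The proteins of the stalk, where translation factors bind, did not share 1 pattern. MRPL12, the stalk protein that also binds the mitochondrial RNA polymerase, measured -0.70 and -0.60 in replicate 1, against -0.09 and 0.00 in replicate 2. MRPL10, which holds the stalk to its base, measured 0.09 and 0.11 in replicate 1 and -0.28 and -0.28 in replicate 2. MRPL11, at the stalk base, was slightly below 0 on every array (mean -0.11 ± 0.08). MRPL41, which has been linked to p53-dependent cell death, lay between -0.43 and -0.06 (mean -0.22 ± 0.20).

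At the upper end of the family, 5 of the 8 highest members had replicates of opposite sign whose mean was near 0: MRPL49 (-0.03), MRPL53 (-0.01), MRPS31 (0.03), MRPL54 (0.04) and MRPL2 (0.08). MRPL33 averaged 0.06 ± 0.01, with 3 of 4 arrays above 0. With the arrays centred on their median in place of loess, the means of MRPS31, MRPL54, MRPL33 and MRPL2 turned negative (-0.14, -0.15, -0.16 and -0.05).

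MRPS36 was the one member higher on all 4 arrays, at 0.18 and 0.21 in replicate 1 and 0.06 and 0.07 in replicate 2, and its mean of 0.13 ± 0.09 (limma adjusted p = 0.506) turned to -0.10 with median centring. Named as a ribosomal protein on this array, MRPS36 was later assigned to the 2-oxoglutarate dehydrogenase complex of the citric acid cycle.

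MRPL18, the large subunit protein that binds the ribosomal 5S RNA in bacteria, stood apart. Its log2 ratio was -0.55 and -0.41 on the replicate 1 arrays and 0.82 and 0.86 on the replicate 2 arrays, so the replicates were far apart while the dye-swapped arrays were not. The probe's normalized log2 intensity was 10.97 with farnesol and 11.45 with vehicle in replicate 1, and 12.13 with farnesol and 11.29 with vehicle in replicate 2. The mean of 0.18 (SD 0.932, n = 2) therefore describes neither replicate, and with median centring it was -0.04. Only 77 of all 17871 genes (0.431%) differed between replicates by at least as much as MRPL18 did. After it, the widest differences among members were those of MRPS35 (-0.09 in replicate 1 and -0.74 in replicate 2) and MRPL51.

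**Figure D3:**
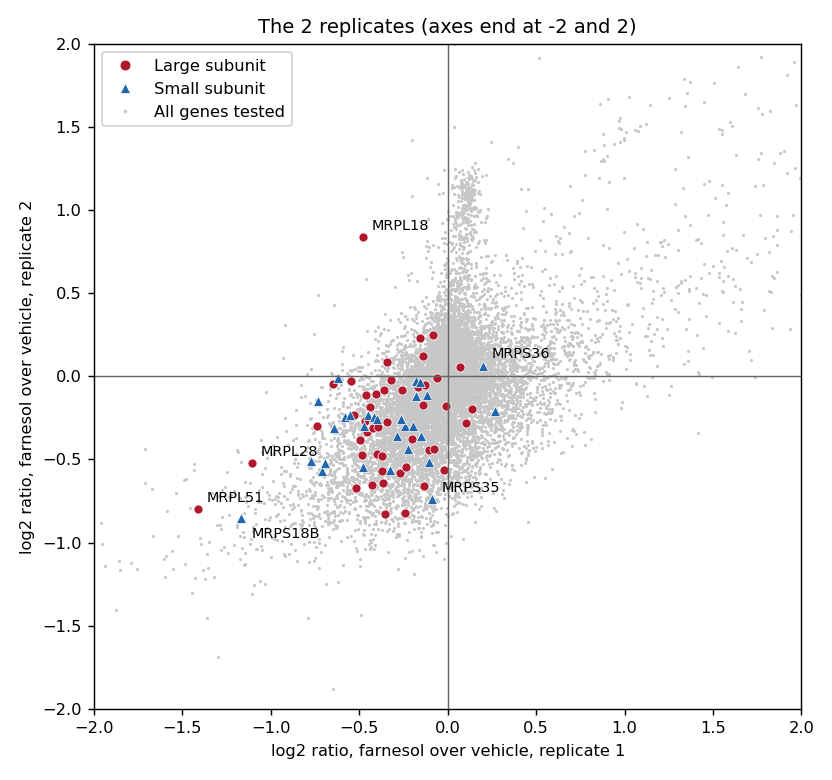
Log2 ratio of farnesol over vehicle in replicate 1 (horizontal) and replicate 2 (vertical) for large subunit genes (circles), small subunit genes (triangles) and all genes tested (grey points), with axes cut at -2 and 2. Most members sit at the lower left, below 0 in both replicates, and MRPL18 sits alone at -0.48 in replicate 1 and 0.84 in replicate 2.

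The direction was shared between replicates, but the ranking within the family was only weakly so. In both replicates 66 of the 76 members (86.8%) were below 0, against 31.9% of all genes. The replicate means correlated at r = 0.290 across the 76 genes (Spearman's rho 0.234) and at 0.355 without MRPL18, against 0.710 across all genes. Mean log2 ratios spanned only -1.11 to 0.18 among members, against -2.30 to 8.03 over all genes. A narrower span can lower r by itself, so the values of r are not directly comparable. These correlations are descriptions across genes that share arrays, and genes are not independent replicates. Of the 58 genes lower on all 4 arrays, 35 had the larger drop in replicate 1 and 23 in replicate 2. Over the whole array the split leaned the other way. Of 4417 genes lower on all 4 arrays, 1697 had the larger drop in replicate 1 and 2720 in replicate 2. The difference between these splits was not tested.

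Intensity moved with the ratios in the array as a whole, so the members were set beside genes in 3 intensity ranges. The lowest range had no lower limit and the highest no upper limit. Members were brighter than the array as a whole, with a median log2 intensity of 10.36 against 7.74 over all genes. The 26 dimmest members had a median log2 ratio of -0.31 and 20 were lower on all 4 arrays, against a median of 0.01 and 22.2% among the 15399 genes in that range or below. The 25 members of middle intensity had a median of -0.38 and 20 were lower, against -0.14 and 44.3% of 1173 genes. The 25 brightest members had a median of -0.33 and 18 were lower, against -0.03 and 36.3% of 1299 genes at that intensity or above. The share of genes lower on all 4 arrays was thus higher among genes of the members' middle and upper intensities than over the whole array. The members' share lay above that of the genes in all 3 ranges. The lowest range holds most of the array and is not matched to the members in intensity.

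Different probes of a gene mostly gave the same direction. Of the 23 genes with several tested probes, 19 had all probes below 0, 2 had all probes above 0 (MRPL33 and MRPL2) and 2 had probes of opposite sign. These last were MRPL46, with -0.04 and 0.02, and MRPL45, whose brighter probe gave -0.60 and whose other probe gave 0.08. The second probe of MRPL3 gave -0.16, that of MRPS6 gave -0.34, and that of MRPS30 gave -0.05. MRPL43 had 4 probes, of which a pair to one transcript accession gave -0.48 and -0.46, and those to other transcripts gave -0.12 and -0.00.

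Ribosomal proteins of the cytosol and the nuclear-encoded respiratory chain were taken as neighbouring families. The 84 cytosolic ribosomal protein genes had a median log2 ratio of 0.04, which was -0.14 with median centring. On all 4 arrays 16 of them were lower (19.0%) and 19 higher (22.6%), near the 24.7% and 21.0% of all genes. With median centring 23 were lower and 1 higher, against 29.5% and 13.4% of all genes. The 75 respiratory chain genes, taken by a name rule that covers succinate dehydrogenase and ATP synthase too, had a median of -0.17. On all 4 arrays 42 of them were lower (56.0%) and 5 higher (6.67%). With median centring the respiratory chain median was -0.39, with 58 genes lower and 0 higher on all 4 arrays, and the member median was -0.54. The mitochondrial ribosomal proteins thus had the lowest of the 3 medians under both scalings, and the difference between families was not tested. The families were not matched for intensity. Their median log2 intensities were 10.36 for the members, 14.86 for the cytosolic ribosomal proteins and 11.30 for the respiratory chain.

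**Figure D4:**
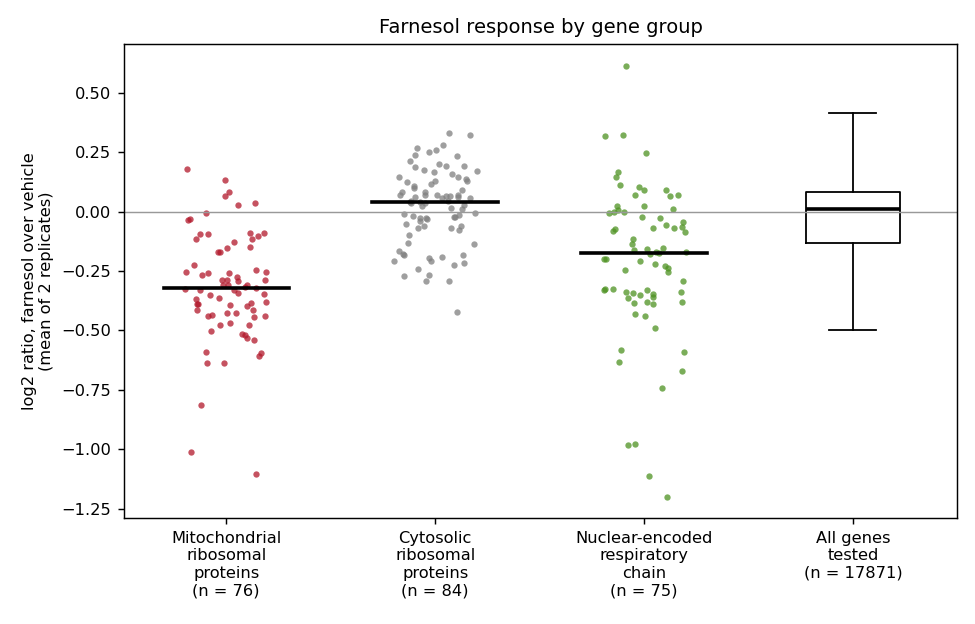
Mean log2 ratio of farnesol over vehicle for each gene (points) of the mitochondrial ribosomal proteins, the cytosolic ribosomal proteins and the nuclear-encoded respiratory chain, with black lines at the medians of -0.32, 0.04 and -0.17. The box shows the quartiles and median of all 17871 genes tested, with whiskers at the 5th and 95th percentiles.

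Factors that work with the mitochondrial ribosome were read from lists, with 0 genes called by limma in any of them, against 3 of all genes. For the counts below, 24.7% of all genes were lower on all 4 arrays and 21.0% higher. Of 12 translation factors, 9 were tested; their median was -0.35 and 8 were lower on all 4 arrays. The median was -0.21 without replicate 2 and -0.53 with median centring. GFM1, the mitochondrial elongation factor G that moves the ribosome along the message, measured -0.951 and -0.996 in replicate 1 and -0.78 and -0.90 in replicate 2 (mean -0.91 ± 0.09; limma adjusted p = 0.191). TSFM, the exchange factor that reloads elongation factor Tu, averaged -0.55 ± 0.12. The release factors MTRF1 (-0.11 ± 0.03) and MTRF1L (0.03 ± 0.17) had the highest values of this list.

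Assembly factors had a median of -0.14 over the 20 tested of 25, and 14 were lower on all 4 arrays (10 with no normexp offset or with processed signals). The median was -0.33 with median centring and -0.22 without replicate 1. TFB1M, which methylates the small subunit ribosomal RNA, averaged -0.74 ± 0.22, and C7orf30, now named MALSU1, averaged -0.71 ± 0.02 with all 4 arrays between -0.73 and -0.70. The highest were GTPBP5 (0.09) and FLJ22578, now named MRM1 (0.08, and -0.02 with median centring).

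Mitochondrial aminoacyl-tRNA synthetases, which charge the transfer RNAs, had a median of -0.26 over the 18 tested of 20, and 11 were lower on all 4 arrays. This list included KARS (-0.23), QARS (-0.04) and GARS (0.00), which are not specific to mitochondria, and KARS and QARS were among the 11. The median was -0.15 without replicate 2, -0.38 without replicate 1 and -0.16 with a gene's probes averaged. FLJ12118, the cysteine enzyme now named CARS2, measured -1.54 in replicate 1 and -0.70 in replicate 2. FLJ10326, the isoleucine enzyme now named IARS2, was deeper in replicate 2, at -0.62 in replicate 1 and -1.24 in replicate 2. WARS2, the tryptophan enzyme, was above 0 on all 4 arrays (mean 0.33 ± 0.26), but not with median centring (mean 0.26). The highest after it was AARSL, the alanine enzyme now named AARS2 (0.09, and -0.03 with median centring).

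The remaining lists were small. Of 11 genes of transfer RNA modification and processing, 9 were tested, with a median of -0.13 and 5 lower on all 4 arrays; the median was -0.22 with median centring and -0.21 without replicate 1. RG9MTD1, a subunit of mitochondrial RNase P now named TRMT10C, averaged -0.60 ± 0.01. HADH2, another subunit now named HSD17B10, averaged -0.26 ± 0.04, and both were lower on all 4 arrays. KIAA0391, the catalytic subunit now named PRORP, averaged 0.12 ± 0.08 (0.01 with median centring), and its difference from these partners was not tested. MTO1 averaged -0.42 ± 0.28 and NSUN3 0.15 ± 0.21. Of the ribosomal proteins that the name rule does not reach, 5 of 7 were tested, with a median of -0.20 and 2 lower on all 4 arrays: CHCHD1 (-0.29 ± 0.05) and ICT1 (-0.24 ± 0.01). With median centring this list's median was -0.42 and 4 of the 5 were lower on all 4 arrays, and without replicate 2 its median was -0.31. DAP3, a small subunit protein linked to apoptosis, had replicates of opposite sign (0.13 and -0.32), as did MRP63 (-0.31 and 0.12). Both tested genes listed under insertion of newly made proteins into the inner membrane were lower on all 4 arrays, OXA1L at -0.38 ± 0.03 and LETM1 at -0.22 ± 0.04.

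The authors' deposited table lists 7018 probes with p-values up to 0.001 and follows replicate 1: its log ratios correlated with the scanner's at r = 0.9999 in replicate 1 and 0.832 in replicate 2. In the authors' deposited table, 55 of the 106 member probes appear (51.9%), against 17.1% of all probes. These shares were not matched for intensity, and members were brighter than all genes tested (median log2 intensity 10.36 against 7.74). Of these 55 probes 54 are lower (98.2%), against 57.8% of all probes in the authors' deposited table, and the single higher one is MRPS36 at a ratio of 1.18. The lowest ratios in the authors' deposited table are 0.377 for MRPL51, 0.447 for MRPS18B and 0.449 for MRPL28. MRPL18 stands at 0.732 in the authors' deposited table, the direction of replicate 1 and not of replicate 2.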

How the data were processed

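RNA of farnesol-treated and vehicle-treated H460 cells was compared on 4 two-colour arrays. The scans had been read with Agilent Feature Extraction 8.1.1.1, per the file headers. Deposited were spot mean and local background median intensities, and processed intensities after background subtraction and dye normalization, per the file headers. Cy5 over Cy3 was deposited as a log10 ratio, per the file headers; it equalled that of the processed intensities within 0.001 for 94.7% to 97.4% of spots per array, and each other spot carried the scanner's surrogate flag. A table by the authors, deposited in identical copies, held a linear ratio and a p-value for each probe, and its header names only replicate 1.

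Files were read with the data.table package (version 1.17.8) of R 4.3.3, and limma 3.58.1 did the rest. Background was corrected by normexp (offset 50, which shrinks ratios of dim probes). Ratios were normalized by loess within arrays, with control and outlying spots at weight 0 and then left out. One outlying spot of MRPL47 was dropped, leaving this gene 3 arrays. Signs were turned to farnesol over vehicle from the dyes in the labels, spots of a probe averaged, and the arrays of a pair averaged (n = 2). Channel intensities were read after Aquantile scaling between arrays. Probes were kept if, for farnesol or for vehicle, they exceeded background clearly on 1 or more arrays of both replicates, and the brightest probe represented its gene, leaving 28594 features, 17871 with a symbol. The test was limma's moderated test against 0 with Benjamini-Hochberg adjustment, tested on simulated data.

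Named were the 15 lowest and 8 highest members, the 3 with the widest difference between replicates, 10 chosen for their roles, and the 2 lowest and 2 highest of each other list. MRPL46 was named for its probes after its values were seen. So were HADH2, as a subunit of RNase P, and KARS, QARS and GARS, as not specific to mitochondria. Members and lists were chosen with earlier results of these data known. Symbols follow the array's design; newer names and roles are background knowledge. No probe sequence was used here. Alternatives covered background correction, normalization, the probe filter, probes per gene, dye orientation, the arrays of a pair as a random block and leaving out a replicate.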

Additional observations from a re-analysis of the deposited data

How the results depend on the processing

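The member median stayed below 0, and the count lower on all arrays used stayed between 52 and 68, under the 10 alternatives that give them. The share of all genes lower on all arrays used ranged from 22.4% (no normexp offset) to 41.6% (without replicate 1). Median centring of each array in place of loess moved the medians to -0.54 (76 genes), -0.51 (large) and -0.55 (small), against -0.03 over all genes. With it, 67 members were lower on all 4 arrays, against 29.5% of all genes, and 0 were higher, against 13.4%. At least 2-fold lower in both replicates were 2 members. Members higher on all arrays numbered 2 with no normexp offset (24.9% of all genes), with the scanner's processed signals (21.8%) and with farnesol in Cy5 only (32.7%). With a replicate left out, where 2 arrays remain, 5 to 6 members were higher. Without replicate 1, 41.6% of all genes were lower and 40.5% higher on both remaining arrays. Without replicate 2, these shares were 36.0% and 38.2%. The small subunit median was -0.30 with no offset, -0.36 with farnesol in Cy5 only, and ranged from -0.33 to -0.30 with a replicate left out. Fitting the 4 arrays with the pair as a random block (consensus correlation 0.549) called 33 members, all lower, and 2261 of all genes, against 0 and 3; the lowest adjusted p of a member was then 0.0033, and this fit draws part of its information from technical repeats. In the other replicated fits 0 members were called, with lowest adjusted p-values of 0.0634 (median centring) to 0.203 (no filter on dim probes), while calls over all genes ranged from 2 to 55. Of 32 named members, 9 changed sign under at least 1 alternative: MRPL49, MRPL53, MRPS31, MRPL54, MRPL33, MRPL2, MRPS36, MRPL18 and MRPL10. MRPL49 was 0.02 with no offset, 0.00 with processed signals and 0.13 without replicate 2. MRPL53 was 0.04 with no offset and with processed signals, 0.13 without replicate 1 and 0.00 with farnesol in Cy5 only. Under median centring MRPS31 was -0.14, MRPL54 -0.15, MRPL33 -0.16, MRPL2 -0.05, MRPS36 -0.10 and MRPL18 -0.04. Without replicate 2, MRPL54 was -0.16, MRPL2 -0.08, MRPL18 -0.48 and MRPL10 0.10; without replicate 1, MRPS31 was -0.21. MRPS31 was -0.09 and MRPL33 -0.01 with farnesol in Cy3 only. Averaging a gene's probes brought MRPL45 to -0.26 and MRPL43 to -0.26. Every fit was already paired, since each ratio sets a farnesol RNA against its own vehicle RNA, and no further replicate block was fitted. The cause of these differences was not tested.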

Other observations

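Genes that lie next to a mitochondrial ribosomal protein gene were read as a further description, chosen after values were seen. The supplied mouse gene table was used only for which genes neighbour each other, on the assumption that human neighbours are the same, with genes matched by symbol or older name and no more than 1000 bases between them. All 76 members had a mouse gene of the same name, and 36 neighbours that are no members had a value. Their median log2 ratio was -0.03, and 12 (33.3%) were lower on all 4 arrays, against 76.3% of members and 24.7% of all genes. The neighbours of MRPL18 differed from it and from each other: TCP1, a subunit of the cytosolic chaperonin, measured -0.99 in replicate 1 and -0.41 in replicate 2, and PNLDC1 0.06 in replicate 1 and 1.23 in replicate 2, beside -0.48 and 0.84 for MRPL18. SARS2, the mitochondrial serine-tRNA synthetase next to MRPS12, measured -0.06 in replicate 1 and 0.10 in replicate 2, beside -0.58 and -0.25 for MRPS12. Over the whole array of 17871 genes tested, 271 lay at or above 0.8 in replicate 2 and within 0.25 of 0 in replicate 1. PNLDC1 is one of them and 0 of the 76 members are. So small a share of the array makes this 0 no result about the members.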
